A study of Mus musculus with 32 samples.

Results

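Genotype-dependent injury response in the mouse medulla was measured as a difference of differences: the effect of nerve injury in mice lacking Cckbr, the cholecystokinin B receptor, minus the effect of the same injury in control mice. The 16 medulla arrays of a series of 32 carried this comparison, with 4 arrays in each of 4 groups. The groups were KO CCI (Cckbr-deficient mice with chronic constriction injury), KO sham (Cckbr-deficient mice with a sham operation), control CCI (control mice with the injury) and control sham (control mice with a sham operation). Every KO animal carried the Cckbr deficiency whether injured or not, and every animal had been operated on. The design text describes each array of a group as a separate animal, and midbrain and medulla were taken from the same animals. Strain, age, sex, the time between operation and dissection, and the exact deletion are not given in the sources used here. All 22626 probe sets of the array other than its 64 control probe sets entered the comparison, and no measured value chose them.

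Chronic constriction injury (CCI) is a model of neuropathic pain in which loose ligatures are tied around the sciatic nerve, so that the paw becomes lastingly hypersensitive. The medulla lies far from the injured nerve, but its rostral ventromedial part sends axons down to the spinal dorsal horn and can both damp and amplify pain signals. Cholecystokinin (CCK) is a neuropeptide of that pathway: acting on CCK-B receptors it opposes opioid analgesia and promotes descending facilitation of pain. The interaction asks whether the medullary transcriptome answered the injury differently when this receptor was missing.

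The levels of Cckbr followed the genotype labels. Its brightest probe set had intensities of 7.44, 13.8, 11.1 and 10.8 in KO CCI and 14.7, 5.92, 24.1 and 10.7 in KO sham medulla. In control CCI medulla it had 183, 200.2, 143 and 160.3, and in control sham medulla 149, 137, 162 and 162. The KO and control arrays did not overlap with either operation. The interaction of Cckbr itself was -0.21 on the log2 scale (95% interval -0.69 to 0.28), and -0.02 without the array KO sham 3, its highest KO array. Here and below a level is the deposited background-subtracted intensity in linear units, and a difference is on the scale of log2(intensity + 16) after quantile normalization.

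Hox genes, which mark the hindbrain, summed to between 1278 and 2862 units on the medulla arrays, against 298 to 514 units on the 16 midbrain arrays, and the ranges did not overlap. Array medians lay between 91.5 and 99.9 units, and arrays of a group correlated at 0.962 to 0.989 across probe sets. KO sham 3 stood apart from all others on the first principal component (60.6, against -9.73 to 2.30 for the rest). It also had 4.58% of its values at or below 0 and the highest sum of the cerebellar neuron genes, 11149 units against 2871 to 5360 on the other medulla arrays. KO CCI 1 and control sham 4 had the lowest sums of choroid plexus genes, 2076 and 1572 units, against 7732 to 12688 on the other 14. Without KO sham 3, and without all 3 of these arrays, the interactions of named genes are given where they moved most. In whole tissue, fewer cells of a type and less RNA per cell cannot be told apart.

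No probe set passed the threshold for the interaction. Of 22626 tested, 0 (0%) had an adjusted p under 0.05 by limma's moderated test with Benjamini-Hochberg adjustment, and the lowest adjusted p was 0.9997. At an unadjusted p under 0.05 there were 604 (2.67%), of which 280 had an interaction above 0 (1.24%) and 324 one below 0 (1.43%). A threshold of 0.05 passes 1131 of this number of probe sets on average when nothing differs, and the observed count was below that number. Probe sets are not independent, and the spread of such a count around its average was not tested. Among the 11645 bright probe sets, those with a highest group mean of at least 100 units, 115 were at unadjusted p under 0.05 (0.988%), against 489 of the 10981 dimmer ones (4.45%). Without KO sham 3 the count past the threshold was also 0, with 653 at unadjusted p under 0.05 (2.89%). With KO CCI 1 and control sham 4 left out as well it was 0, with 768 at unadjusted p under 0.05 (3.39%). Leaving out KO sham 1 gave 1 call, Nepro (-0.88), and leaving out control CCI 3 gave 1, Cps1 (1.34), both at most 16.6 units on any array.

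**Figure D1:**
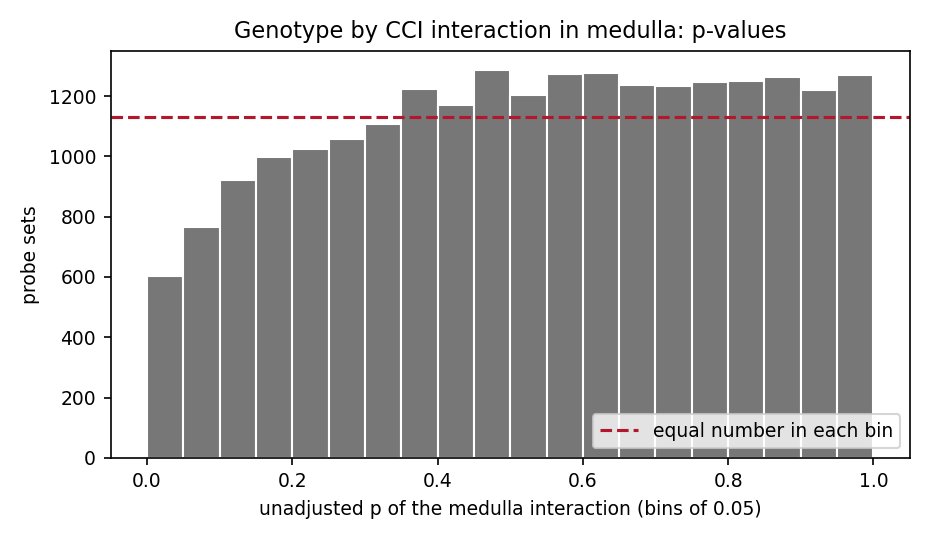
Distribution of the unadjusted p-values of the medulla interaction over 22626 probe sets (x axis, bins of width 0.05; y axis, number of probe sets), with the dashed line at the equal share of 1131 per bin. The first bin holds 604 probe sets, and the first 7 bins lie below the line.

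The width of the intervals sets what the data could have shown. The median standard error (SE) of an interaction was 0.19, and 0.15 among the probe sets of at least 100 units. The 95% interval of the interaction lay wholly inside a 2-fold difference in either direction for 20127 probe sets (89.0%) and inside a 1.5-fold difference for 12498 (55.2%). Among the bright probe sets these were 11306 (97.1%) and 9257 (79.5%). A single changed probe set of median SE would have needed an interaction of 1.44 to pass the threshold alone, or 1.12 (2.17-fold) if bright. For a probe set of median SE that changed alone, an estimate below these sizes could not pass with 4 arrays per group. These sizes are limits for the estimate and not for the true interaction.

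Neither of the injury effects that make up the interaction held a probe set past the threshold. CCI against sham gave 0 of 22626 probe sets in KO medulla (0%; lowest adjusted p 0.0893, 959 at unadjusted p under 0.05, or 4.24%), and 1 without KO sham 1 (Nepro) or without KO sham 2 (Sp110, at most 22.3 units on any array). In control medulla it also gave 0 (0%; lowest adjusted p 1, 633 at unadjusted p under 0.05, or 2.80%). Across all probe sets the injury effect in KO medulla and the injury effect in control medulla, which share no array, correlated at r = 0.066, and at 0.10 among the 11645 bright ones. Without KO sham 3 these values were 0.106 and 0.171. Probe sets are not independent replicates, and all arrays were normalized together, so these correlations are descriptions. The sample descriptions carry an array code of unstated meaning, and the interaction among arrays of its lower value correlated with that among arrays of its higher value at -0.011 over all probe sets and 0.024 over the bright ones. Control sham 2 was the only control sham array of the lower value, as control sham 1 has a code of its own.

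**Figure D2:**
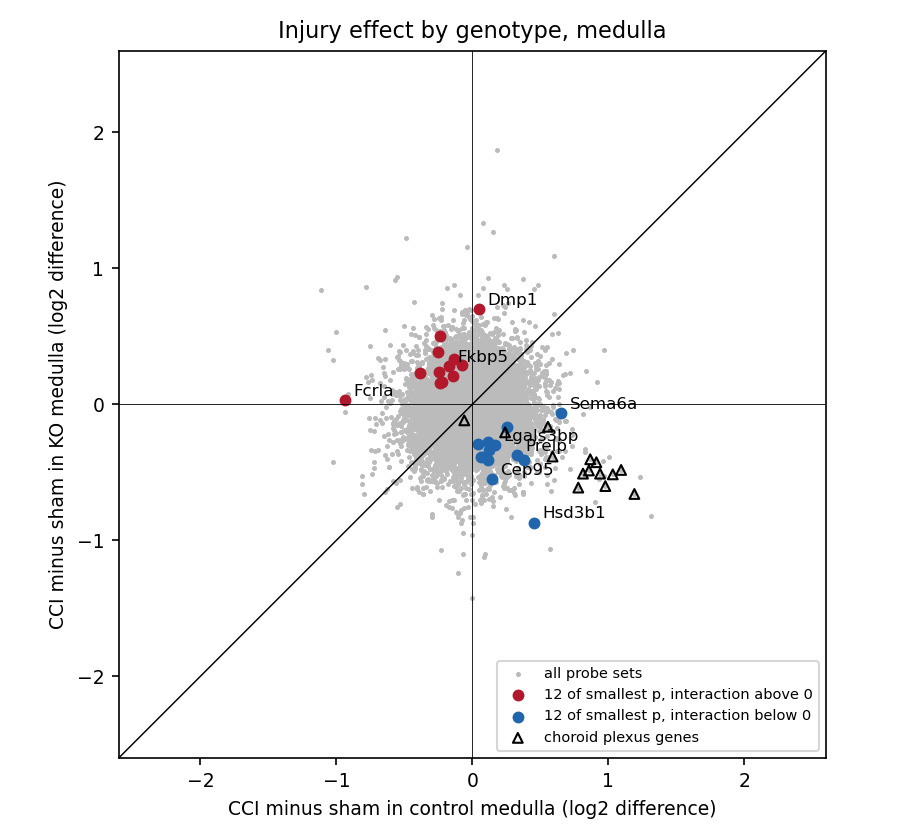
Injury effect in KO medulla (y axis, CCI minus sham, log2 difference) against the injury effect in control medulla (x axis, same unit) for 22626 probe sets in grey, with equal effects on the diagonal. The 12 genes of smallest p with an interaction above 0 (red) lie above the diagonal, the 12 below 0 (blue) under it, and the choroid plexus genes (triangles) lie under it with a median of -0.48 in KO and 0.86 in control medulla.

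The genes at the head of the ranking are given for their levels, as none passed the threshold. They are, per direction, the 12 genes of smallest p among probe sets with 1 gene symbol and a highest group mean of at least 50 units. An interaction above 0 means that CCI minus sham was higher in KO than in control medulla. Their interactions ran from 0.35 to 0.96 above 0 and from -1.32 to -0.33 below 0, and each had an adjusted p of 0.9997. In 23 of the 24 the injury difference in KO medulla and that in control medulla had opposite signs, and the exception was Dmp1. In each of the 24 the CCI and sham arrays overlapped in at least 1 genotype. Selection by small p favours opposite signs, so this count describes the list and supports nothing further.

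Dmp1 encodes dentin matrix acidic phosphoprotein, an extracellular protein best known from bone and teeth. It had intensities of 71.1, 69.99, 59.3 and 74.1 in KO CCI and 38.6, 42.1, 25 and 44 in KO sham medulla, against 67.7, 60.3, 59.6 and 59.5 in control CCI and 59.9, 63.7, 59.2 and 55 in control sham medulla. The KO sham arrays lay below all 12 others, and the remaining groups overlapped. Its interaction was 0.65 (SE 0.14, 95% interval 0.35 to 0.95), made up of 0.70 in KO and 0.05 in control mice. The KO difference had an adjusted p of 0.0893 over all probe sets and of 0.0419 when 1 probe set per gene was tested, a setting chosen after seeing the data. Over all other settings and omissions of single arrays, the lowest adjusted p of any probe set in this KO comparison ran from 4.48e-04 to 0.997. Leaving out KO sham 3, the lowest array, gave an interaction of 0.56.

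Fkbp5 encodes a co-chaperone of the glucocorticoid receptor and is itself induced by glucocorticoids. Its intensities were 133, 115, 126 and 118 in KO CCI and 103, 111, 76.7 and 100.5 in KO sham medulla, against 105, 108, 110.1 and 119.8 in control CCI and 141, 124, 115 and 121 in control sham medulla. KO CCI lay above KO sham on every array, while the 2 control groups overlapped with the sham group higher on average. The interaction was 0.45 (95% interval 0.18 to 0.72), and 0.38 without KO sham 3. A second, dimmer Fkbp5 probe set gave -0.19.

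Dlg2, the postsynaptic scaffold protein PSD-93, had 69.97, 67, 64.9 and 76.7 units in KO CCI and 66.4, 57, 55.6 and 68.6 in KO sham medulla, against 45.2, 57.5, 66.1 and 61.1 in control CCI and 75.9, 73.5, 64 and 69.7 in control sham medulla. Both pairs of groups overlapped on this scale, and the interaction was 0.39 (95% interval 0.14 to 0.65). A second probe set for Dlg2, with group means between 42 and 51 units, gave -0.18.

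Cend1 promotes cell cycle exit of neuronal precursors and is abundant in mature neurons. It had 1172, 1320.3, 1412 and 1345 units in KO CCI and 1277, 1014, 936 and 1174 in KO sham medulla, against 1011, 1091, 1191 and 1190.1 in control CCI and 1569.95, 1197, 1244 and 1223 in control sham medulla. All control CCI arrays lay below all control sham arrays, of which control sham 1 was far above the other 3. The interaction was 0.48 (95% interval 0.14 to 0.82), and the other Cend1 probe sets gave 0.37, 0.17 and 0.09.

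Kcnab3, an auxiliary subunit of voltage-gated potassium channels, averaged 128 ± 12.7 units in KO CCI, 95.6 ± 25.3 in KO sham, 106 ± 8.0 in control CCI and 128 ± 16.9 in control sham medulla (SD, n = 4 each). Its interaction was 0.63 (95% interval 0.22 to 1.05) and 0.49 without KO sham 3, and a brighter probe set gave -0.07. Map2k5, the kinase that activates ERK5, averaged 149.6 ± 10.4, 129.6 ± 21.2, 124 ± 8.64 and 144 ± 7.57 units in KO CCI, KO sham, control CCI and control sham medulla, with an interaction of 0.39 (0.11 to 0.66). Its other 2 probe sets gave 0.42 and 0.13, both on the same side of 0.

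Among the rest, Runx1t1, a transcriptional corepressor, had an interaction of 0.47 (0.15 to 0.79) with all KO CCI arrays (80.9 to 104) above all KO sham arrays (60.2 to 71.2), but a brighter Runx1t1 probe set gave 0.03. Golt1b, a Golgi transport protein, had 0.36 (0.12 to 0.61), with -0.08 by a dimmer probe set. The nuclease gene Toe1 had 0.35 (0.12 to 0.58), with 0.07 by a brighter probe set. Fcrla, an Fc receptor-like protein of B cells, had the widest interaction of the 12, 0.96 (0.38 to 1.54). Its control CCI arrays measured 18.3, 60.01, 50.03 and 54.9 units against 126, 86.3, 94 and 84.3 in control sham medulla, with no overlap, while KO CCI (60.2 to 72.1) and KO sham (58.4 to 74.1) overlapped. Other, dimmer Fcrla probe sets gave 0.11 and -0.45. Acrbp, a protein of the sperm acrosome, had 0.61 (0.20 to 1.02), and 0.26 by a dimmer probe set. Klk1b8, with 0.74 (0.26 to 1.22), belongs to the kallikrein family, whose near-identical copies the probes may not separate.

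**Figure D3:**
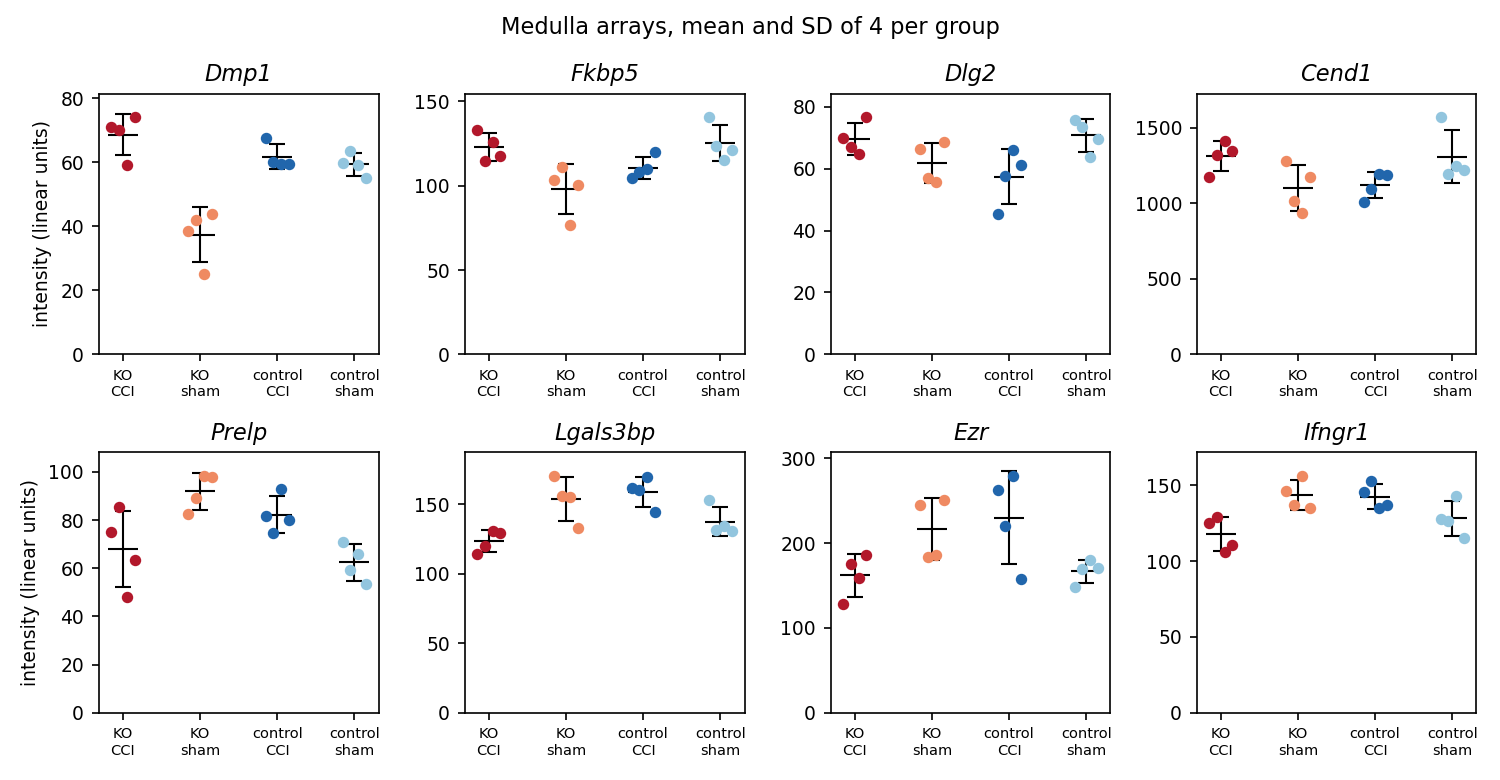
Intensity on each of the 16 medulla arrays (y axis, linear units from 0; points are arrays, bars the mean and SD of 4) for 4 genes with an interaction above 0 (upper row) and 4 below 0 (lower row). In the Dmp1 panel the 4 KO sham arrays sit between 25 and 44 units, below all others, and in the Lgals3bp panel the 4 KO CCI arrays lie below the KO sham and control CCI arrays.

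Prelp, the gene of smallest p among the 12 below 0, encodes a leucine-rich proteoglycan of connective tissue. It measured 75, 85.3, 48.2 and 63.3 units in KO CCI and 82.4, 89, 98.4 and 97.8 in KO sham medulla, against 81.6, 74.6, 92.9 and 79.97 in control CCI and 70.8, 59.4, 66 and 53.5 in control sham medulla. The control groups did not overlap, with CCI higher, and the KO groups overlapped, with CCI lower on average. The interaction was -0.70 (SE 0.17, 95% interval -1.07 to -0.33), and a second Prelp probe set gave -0.34.

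Lgals3bp encodes a secreted glycoprotein that binds galectin-3. Its levels were 114, 119.9, 131 and 129 units in KO CCI and 171, 156, 155 and 133 in KO sham medulla, against 162, 160.4, 169.7 and 144 in control CCI and 153, 132, 135 and 131 in control sham medulla. The 4 KO CCI arrays lay below every other array, but narrowly so against control sham. The highest KO CCI array was at 130.6 units and the lowest control sham array at 130.7. The interaction was -0.47 (95% interval -0.73 to -0.21).

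Ifngr1, the ligand-binding chain of the interferon gamma receptor, had 125, 129, 106 and 111 units in KO CCI and 146, 137, 156 and 135 in KO sham medulla, against 146, 153, 135 and 137 in control CCI and 128, 126, 143 and 115 in control sham medulla. KO CCI lay wholly below KO sham, and the control groups overlapped. Its interaction was -0.40 (95% interval -0.65 to -0.14) in medulla and -0.33 in midbrain, of the same sign. Eif2ak2, the kinase PKR that responds to double-stranded RNA, averaged 67.1 ± 6.0 in KO CCI, 94.1 ± 10.5 in KO sham, 78.9 ± 14.1 in control CCI and 71.7 ± 15.7 in control sham medulla (SD, n = 4 each). Its interaction was -0.52 (-0.91 to -0.14), with -0.96 among arrays of the higher array code and 0.05 among those of the lower code. The only control sham array of the lower code, control sham 2, was the highest of its group at 91.4 units. A dimmer Eif2ak2 probe set gave -0.07.

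Ezr encodes ezrin, which links the cell membrane to actin. It measured 128, 175, 158 and 186 units in KO CCI and 245, 183, 186 and 251 in KO sham medulla, against 263, 220.5, 279 and 157 in control CCI and 148, 169.6, 179.6 and 171 in control sham medulla. The CCI and sham arrays overlapped in both genotypes. Its interaction was -0.79 (-1.28 to -0.30), and -0.49 when the mean levels of the choroid plexus and cerebellar genes were added as covariates, a setting under which all 24 kept their sign. Sema6a, a transmembrane axon guidance protein, had -0.72 (-1.19 to -0.25), and -0.41 without KO sham 3, KO CCI 1 and control sham 4. Its control CCI arrays (49.7 to 83.3) lay above its control sham arrays (23.2 to 47.1), and a brighter Sema6a probe set gave 0.02.

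Hsd3b1, an enzyme of steroid hormone synthesis, had the widest interaction of these 12, -1.32 (-2.23 to -0.42). Its KO CCI arrays ranged from 12.4 to 84.4 units and its KO sham arrays from 51.2 to 108, and the interaction was -0.69 with the same covariates. Cep95, a centrosomal protein, had -0.69 (-1.15 to -0.23), with KO CCI (31.8 to 38.6) wholly below KO sham (43.4 to 77.8). The remaining genes were Pip5k1b, a lipid kinase that makes phosphatidylinositol bisphosphate (-0.42), the apolipoprotein gene Apoc4 (-0.45), the Mediator subunit gene Med17 (-0.46) and BC004004 (-0.33). Pip5k1b was -0.42 by its named probe set and -0.26 and -0.02 by 2 others, while a brighter Med17 probe set gave 0.04. Other BC004004 probe sets gave -0.11, -0.18 and 0.12, the first 2 of them brighter than the named one. In all, 17 of the 24 genes had another probe set, and in 8 of these at least 1 of them had the opposite sign.

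A stricter description by array asked where CCI and sham arrays did not overlap in either genotype and moved in opposite directions. This held for 3 of 22626 probe sets (0.0133%), chosen here after their values were seen. They were Lcp2, an adaptor of immune receptors, with an interaction of 0.66, Tmem42 with -0.27 and Thap2 with -0.51. Non-overlap in the same direction held for 5 probe sets (0.0221%), also named after the fact. Among these, Hbegf, a growth factor of the EGF family, averaged 261 units in KO CCI against 209 in KO sham medulla, and 246 in control CCI against 208 in control sham medulla. Hlx and Pdlim5 were likewise higher with CCI in both genotypes, and Npy1r and Ces1d lower. Unlike Hbegf, all of these were dim, with group means of at most 36.7 units. By genotype alone, non-overlap held for 410 probe sets in KO medulla (1.81%) and 464 in control medulla (2.05%).

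The gene lists ask the same question of pathways. Of 697 distinct listed genes 590 were measured, 0 passed the threshold, and 13 were at unadjusted p under 0.05 (6 above 0, 7 below 0). That is 2.20% of the listed genes, against 2.36% of all 12393 genes tested with 1 probe set each (145 above 0, 1.17%, and 148 below 0, 1.19%). The median interaction over all genes was 0.01. Of the 31 lists, 27 had a median between -0.10 (interferon response) and 0.14 (red blood cell and granulocyte genes). The exceptions were the opioid and the monoaminergic neuron genes above 0, and the choroid plexus and cerebellar neuron genes below 0.

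**Figure D4:**
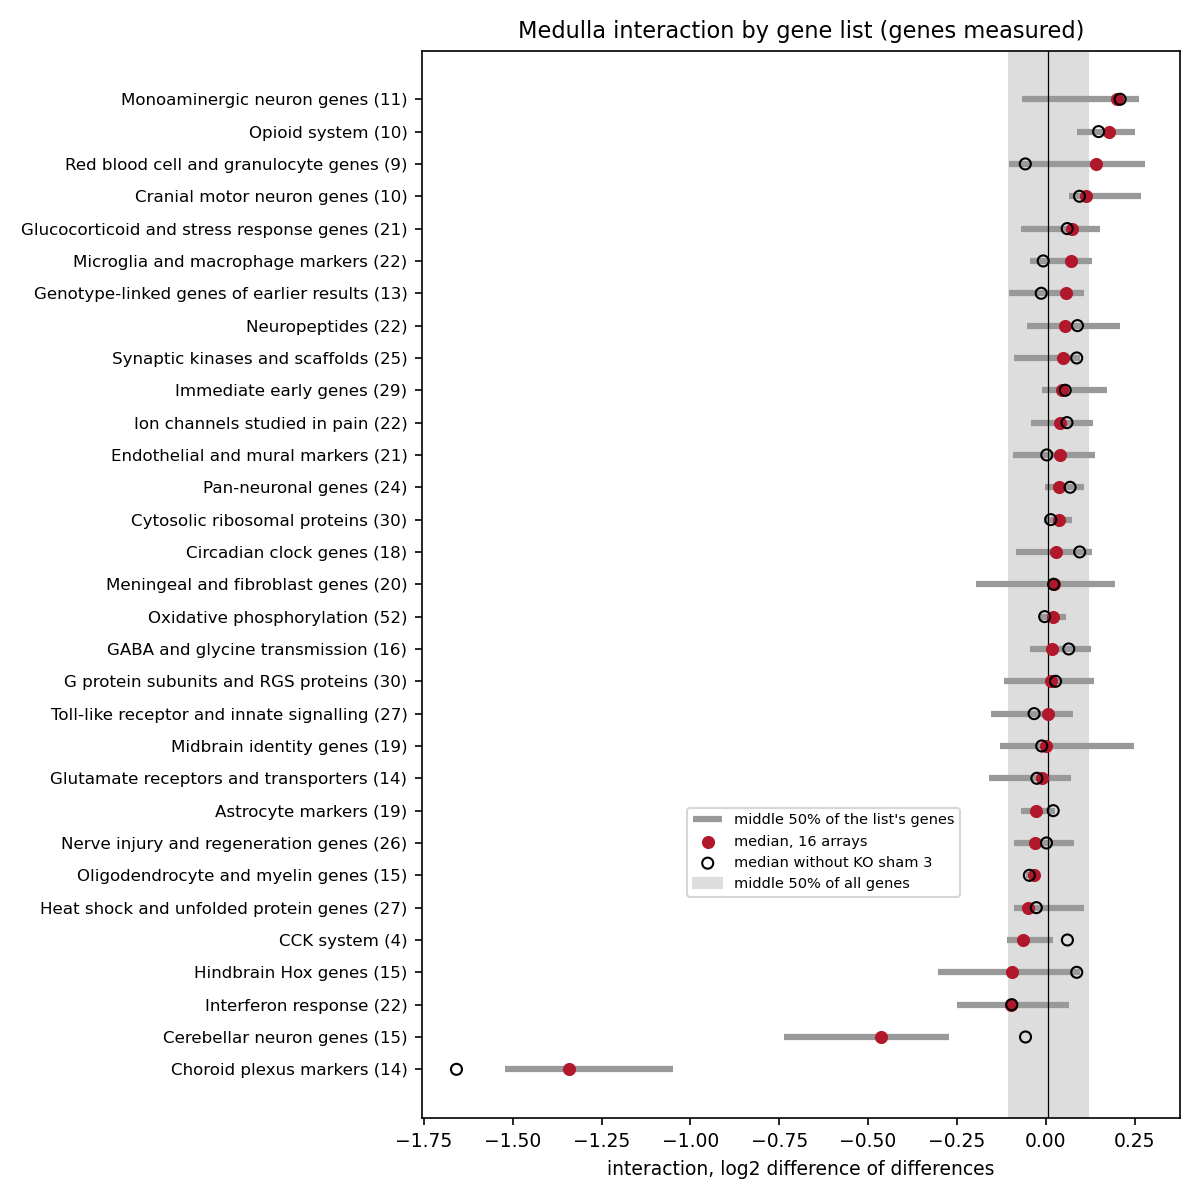
Medulla interaction of the 31 gene lists (rows, number of genes measured in brackets; x axis, log2 difference of differences): red points are medians over 16 arrays, grey bars the middle 50% of the list's genes, open circles the medians without KO sham 3, and the band the middle 50% of all genes. The choroid plexus median is -1.34 (-1.66 without KO sham 3) and the cerebellar median -0.46 (-0.06 without KO sham 3).

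Among the ligands of the CCK receptors, Cck averaged 410.02 ± 47.7 units in KO CCI, 418 ± 66.9 in KO sham, 423 ± 81.6 in control CCI and 417 ± 104 in control sham medulla (SD, n = 4 each). Its injury difference was -0.05 in KO and 0.00 in control medulla, and its interaction -0.05 (-0.59 to 0.49). Gast, the gastrin gene, was near background, at -18.5 to 24.2 units over the 16 arrays, with an interaction of -0.08 (-1.06 to 0.91). Cckar, the other CCK receptor, ranged over 16.1 to 24.2 units on KO arrays and 14.3 to 32.6 on control arrays, with an interaction of 0.24 (-0.18 to 0.66).

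By the brightest probe set of each gene, a larger share of the opioid genes than of all genes had an interaction above 0. None of these opioid probe sets passed the adjusted or the unadjusted threshold in limma's test. Of 10 measured, 9 had an interaction above 0, against 51.9% of all genes, and the median was 0.18 (0.15 without KO sham 3). Without the 3 arrays that stood apart, 7 of the 10 were above 0. In midbrain the same 10 had a median of 0.01. Among the receptors, the interaction was 0.20 (-0.50 to 0.90) for Oprm1, the mu receptor, 0.27 (-0.56 to 1.1) for Oprd1, the delta receptor, and 0.32 (-0.15 to 0.80) for Oprk1, the kappa receptor. Other, similarly dim Oprm1 probe sets gave -0.16 and -0.86, the latter with an unadjusted p of 0.0143 by limma's moderated test. The sign for this receptor thus depended on the probe set. Oprd1 was also dim, with group means of 16.8 to 24.4 units and -1.67 on control CCI 1.

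Oprk1 measured 80.3, 64, 61.1 and 64.2 units in KO CCI and 69.5, 65.2, 29.3 and 53.4 in KO sham medulla, against 53.3, 54.9, 48.6 and 73.7 in control CCI and 60.1, 54.6, 54.7 and 66 in control sham medulla. The groups overlapped, KO sham 3 was the lowest array, and the interaction without it was 0.15. Oprl1, the nociceptin receptor, was brighter, at 305 to 403 units on KO and 305 to 409.9 on control arrays, and had 0.17 (-0.15 to 0.50). Among the peptide precursors, Penk, the enkephalin gene, was the brightest, at 879 ± 82.9 units in KO CCI, 819 ± 50.5 in KO sham, 879.7 ± 107 in control CCI and 913 ± 216 in control sham medulla. Its interaction was 0.13 (-0.29 to 0.54). Pdyn, the dynorphin gene, had 0.33 (-0.57 to 1.22), but 0.15 without KO sham 3 and -0.08 without the 3 arrays. It was near background, with group means of 5.09 to 28.9 units and -18.4 on KO sham 3. Pomc had 0.07 (-0.43 to 0.58) and Pnoc, the nociceptin gene, -0.04 (-0.32 to 0.25). Of the signalling proteins, Arrb2, the arrestin that desensitises opioid receptors, had 0.19 (-0.10 to 0.47) and Rgs4, which shortens G protein signalling, had 0.01 (-0.22 to 0.25). Other probe sets gave -0.35 for Pomc, -0.05 and 0.15 for Oprl1, -0.11 and 0.26 for Rgs4, and 0.05 for Arrb2.

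The monoaminergic neuron genes had the highest list median, 0.20 (7 of 11 above 0; 0.21 without KO sham 3; -0.05 in midbrain), and 0 of 11 were at unadjusted p under 0.05. The medulla holds serotonin neurons of the raphe and noradrenaline and adrenaline cell groups that project to the spinal cord. Th, the rate-limiting enzyme of catecholamine synthesis, had 97.1, 109, 60.9 and 98.4 units in KO CCI and 64, 80.9, 45.7 and 51.4 in KO sham medulla, against 78.3, 54.2, 112 and 82.9 in control CCI and 105, 73.5, 91.2 and 70.4 in control sham medulla. The groups overlapped in both genotypes, and the interaction was 0.55 (-0.02 to 1.12), with an unadjusted p of 0.0556 by limma's moderated test. Htr1a, a serotonin receptor, had the smallest p below 0 in the list, with -0.11 (-0.44 to 0.22).

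Genes of fast inhibition and excitation were spread on both sides of 0. In the GABA and glycine list 9 of 16 were above 0, the median was 0.02, and 1 was at unadjusted p under 0.05. This was Slc6a5, the neuronal glycine transporter GlyT2, a dim probe set with 17.2 ± 5.83 units in KO CCI, 27.2 ± 8.25 in KO sham, 27.8 ± 6.96 in control CCI and 21.8 ± 7.84 in control sham medulla. Its interaction was -0.59 (-1.10 to -0.08). Glra1, the adult glycine receptor subunit, had 0.32 (-0.14 to 0.79). In the glutamate list 7 of 14 were above 0 with a median of -0.01. Grik1, a kainate receptor subunit, had 87.1, 77.7, 82.3 and 78.1 units in KO CCI and 61.8, 65.3, 48.1 and 75.7 in KO sham medulla, against 67.8, 65.6, 70.3 and 77.9 in control CCI and 75.2, 60.6, 77.8 and 79.5 in control sham medulla. KO CCI lay above KO sham throughout, the control groups overlapped, and the interaction was 0.36 (0.05 to 0.67) in medulla and -0.33 in midbrain. The glial glutamate transporter Slc1a3 had -0.39 (-0.84 to 0.06), or -0.22 without KO sham 3.

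Ion channels studied in pain had a median of 0.04 (13 of 22 above 0, none at unadjusted p under 0.05 in limma's test). P2rx4, an ATP-gated channel, had 0.14 (-0.08 to 0.36) and the sodium channel gene Scn2a -0.31 (-0.73 to 0.12). The neuropeptide list had a median of 0.06 (13 of 22 above 0). Calcb, a calcitonin gene-related peptide gene, had 0.36 (-0.11 to 0.83), and Nmu, the neuromedin U gene, -1.16 (-2.53 to 0.22). The 4 KO sham arrays of Nmu ranged from 14.3 to 108 units and its 4 control sham arrays from -0.0824 to 66.1.

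Immediate early genes, which report recent neuronal activity, had a median of 0.04 (20 of 29 above 0) and 0 at unadjusted p under 0.05. Klf2 had 0.52 (-0.13 to 1.17) and Atf3, a marker of injured neurons, -0.30 (-0.66 to 0.06). The nerve injury and regeneration list had a median of -0.03, with 1 of 26 at unadjusted p under 0.05. That gene was Csrp3, a LIM protein known from muscle, with 0.34 (0.00 to 0.67) at 21.6 to 38.5 units over all arrays. The glucocorticoid and stress list had a median of 0.07 (12 of 21 above 0), and Fkbp5 was its 1 member at unadjusted p under 0.05. Cdkn1a, a cell cycle inhibitor, had -0.22 (-0.66 to 0.21). Circadian clock genes had a median of 0.03, with Bhlhe41 at 0.33 (-0.07 to 0.73) and Per3 at -0.29 (-0.74 to 0.15).

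In the synaptic kinase and scaffold list 14 of 25 were above 0, with a median of 0.05. Beside Dlg2, its 1 other member at unadjusted p under 0.05 was Ppp1r1b, the phosphatase inhibitor DARPP-32. This gene measured 109, 99.2, 127 and 166 units in KO CCI and 171, 125, 115 and 191 in KO sham medulla, against 159, 138, 199 and 144 in control CCI and 139.8, 114, 153 and 101 in control sham medulla. All groups overlapped, and the interaction was -0.55 (-1.09 to -0.01). G protein subunits and RGS proteins had a median of 0.02, with Gng4 at 0.25 (-0.06 to 0.57) and Rgs9 at -0.22 (-0.59 to 0.15).

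Innate immune and interferon genes did not stand out. Toll-like receptor signalling had a median of 0.01 (14 of 27 above 0; none at unadjusted p under 0.05 in limma's test). Tlr4 itself, the receptor for lipopolysaccharide, measured 26.1, 32.5, 35.1 and 31.6 units in KO CCI and 31, 46.2, 32 and 38.9 in KO sham medulla, against 12.2, 20.9, 11.6 and 15.5 in control CCI and 22.8, 19.8, 18 and 22 in control sham medulla. KO arrays lay above control arrays throughout by this probe set, and the interaction was 0.11 (-0.25 to 0.48), with -0.12 in KO and -0.23 in control mice. A second, dimmer Tlr4 probe set averaged 14.4 units in KO CCI, 10.7 in KO sham, 11.1 in control CCI and 12.4 in control sham medulla, with an interaction of 0.24. The co-receptor genes of Tlr4 had -0.07 (-0.89 to 0.75) for Cd14 and 0.02 (-0.54 to 0.58) for Ly96, and the adaptor Myd88 had 0.06 (-0.65 to 0.76). Of the transcription factor and cytokine genes downstream, Relb had 0.35 (-0.17 to 0.88) and Tnf, which was near background, -0.63 (-1.39 to 0.12). The interferon list had a median of -0.10 (14 of 22 below 0), with Psmb8, an immunoproteasome subunit, at 0.30 (-0.06 to 0.66) and Bst2, an antiviral membrane protein, at -0.27 (-0.59 to 0.05).

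Among glia and vessels the list medians stayed near that of all genes. Microglia and macrophage genes had a median of 0.07 (14 of 22 above 0; -0.01 without KO sham 3), with the complement gene C1qc at 0.33 (-0.03 to 0.69) and Itgam, which encodes CD11b, at -0.29 (-0.93 to 0.34). Astrocyte genes had a median of -0.03, with Fgfr3 at 0.24 (-0.11 to 0.60). Oligodendrocyte and myelin genes had -0.03 (12 of 15 below 0), with the transcription factor Olig2 at 0.18 and the myelin protein gene Mal at -0.15. Endothelial and mural genes had 0.04, with the pericyte gene Rgs5 at 0.26 (-0.13 to 0.64). In these 4 lists 1 gene was at unadjusted p under 0.05. It was Ocln, the tight junction protein occludin, with 91.1, 87.3, 104 and 112 units in KO CCI and 114, 106, 98.9 and 119.7 in KO sham medulla, against 117, 131, 127 and 91.4 in control CCI and 88.6, 96.5, 106 and 89.4 in control sham medulla. Its groups overlapped, and the interaction was -0.39 (-0.70 to -0.08). Pan-neuronal genes had a median of 0.04 (18 of 24 above 0) and a highest interaction of 0.34. The member of smallest p was Uchl1, a ubiquitin hydrolase of neurons, at 0.23 (0.03 to 0.44), and the neurofilament gene Nefl was at -0.10.

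Choroid plexus genes had the lowest interaction of any list, and this moved with single arrays. The choroid plexus makes cerebrospinal fluid and lines the fourth ventricle above the medulla. All 14 measured members had an interaction below 0, against 48.1% of all genes, with a median of -1.34. The injury difference had a median of -0.48 in KO and 0.86 in control medulla. At unadjusted p under 0.05 were 2 of the 14. Slc4a5, a bicarbonate transporter, had -0.72 (-1.36 to -0.09), and the collagen gene Col8a1 had -0.97 (-1.84 to -0.11).

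The 14 genes together summed to 2076, 9377, 10457 and 11139 units in KO CCI and to 11877, 10156, 7732 and 12203 units in KO sham medulla. In control CCI medulla they summed to 12688, 11194, 12502 and 9075 units, and in control sham medulla to 9410, 9424, 11223 and 1572 units. One array in KO CCI and one in control sham medulla lay far below the rest, and the remaining arrays of all groups overlapped. With KO sham 3 left out the median was -1.66, and with KO CCI 1 and control sham 4 left out as well it was -0.85. It was -2.0 among the arrays of the lower array code, where control sham 2 was the only control sham array, and -0.61 among those of the higher. Ttr, the thyroxine carrier transthyretin, had -1.39 (-3.28 to 0.49), Folr1, a folate receptor of the choroid plexus, -1.58 (-3.82 to 0.67), and Aqp1, its water channel, -1.27 (-2.59 to 0.05). How much choroid plexus was dissected with each medulla is not recorded in the sources used here, and its part in the other interactions was not tested beyond the covariates given above.

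Cerebellar neuron genes had a median of -0.46 (14 of 15 below 0; none at unadjusted p under 0.05 in limma's test). Without KO sham 3 the median was -0.06. The 15 genes summed to 2871 to 4108 units in KO CCI, 3422 to 11149 in KO sham, 3350 to 5360.1 in control CCI and 3360 to 4935 in control sham medulla. Gabra6, the receptor subunit of cerebellar granule cells, measured 35.7, 32.6, 30.5 and 107 units in KO CCI and 113, 51.4, 1077 and 71 in KO sham medulla, against 73, 284, 73.1 and 64.7 in control CCI and 69.5, 176, 144 and 55.9 in control sham medulla. KO sham 3 was far above any other array, and the interaction of -1.42 (-3.58 to 0.73) became -0.52 without it. Neurod2 was the 1 member above 0, at 0.40 (-0.03 to 0.82). Meningeal and fibroblast genes had a median of 0.02, with Col1a1 at 0.38 (-0.02 to 0.78) and Col1a2 at -0.26 (-0.70 to 0.19). Red blood cell and granulocyte genes had a median of 0.14, and -0.06 without KO sham 3, with the hemoglobin gene Hba-a2 at 0.63 (-0.04 to 1.30) and the antimicrobial peptide gene Camp at -0.41 (-1.13 to 0.31). Hba-a2 was near background, with group means of 6.5 to 21.7 units and -13.3 on KO sham 3. Camp was dim, with group means of 18.0 to 38.3 units.

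**Figure D5:**
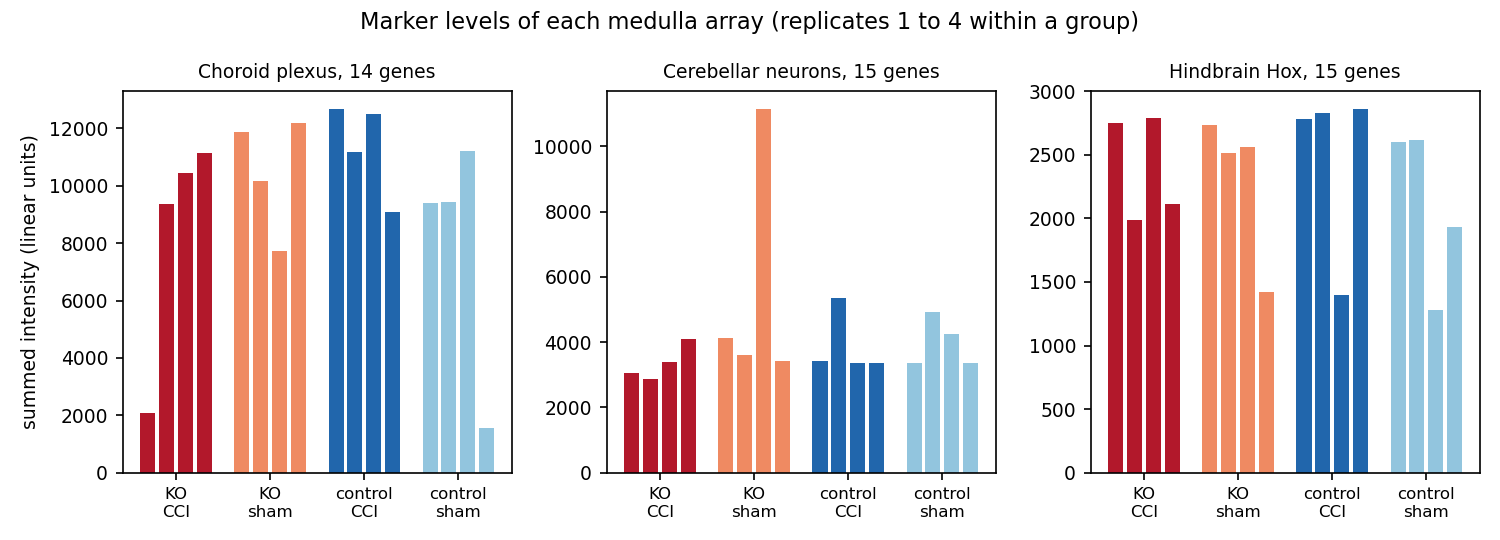
Summed intensity of the choroid plexus, cerebellar neuron and hindbrain Hox genes (y axes, linear units from 0) on each of the 16 medulla arrays (bars, replicates 1 to 4 within a group). KO CCI 1 and control sham 4 have choroid plexus sums of 2076 and 1572 units against at least 7732 on the other 14, and KO sham 3 has a cerebellar sum of 11149 units.

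Hox genes summed to 1987 to 2787 units in KO CCI, 1418 to 2737 in KO sham, 1400.1 to 2862 in control CCI and 1278 to 2616 in control sham medulla, so that the groups overlapped. The list had a median interaction of -0.10 (10 of 15 below 0; 0.09 without KO sham 3), with Hoxb2 at 0.29 (-0.22 to 0.80) and Hoxc6 at -0.36 (-0.93 to 0.20). Cranial motor neuron genes had a median of 0.11 (8 of 10 above 0), led by Isl1, a transcription factor of motor neurons. Isl1 measured 53.9, 57.4, 64.9 and 55.6 units in KO CCI and 29.4, 38.6, 18 and 56.5 in KO sham medulla, against 39.7, 42.4, 62.6 and 43.6 in control CCI and 40.3, 41.5, 49.6 and 57 in control sham medulla. The groups overlapped, and the interaction was 0.58 (0.06 to 1.09) in medulla, 0.43 without KO sham 3, and -0.36 in midbrain. Mnx1, another motor neuron factor, had -0.56 (-1.23 to 0.11). Midbrain identity genes had a median of 0.00, with the dim Lmx1a at -0.83 (-1.64 to -0.03). Oxidative phosphorylation had a median of 0.02 over 52 genes, with Ndufv1 at 0.15 and Atp5h at -0.11. Cytosolic ribosomal proteins had 0.04 over 30 genes, with Rpl37 at 0.41 and Rpl7 at -0.16. Heat shock and unfolded protein genes had -0.05 over 27, with Xbp1, a transcription factor of that response, at 0.26 and the chaperone gene Hspa8 at -0.11.

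Genes whose level followed genotype in earlier results of these data were listed for that reason, so their levels by genotype are no finding here. On the medulla arrays, KO and control intensities did not overlap for 7 of the 13. Their selection favours this count, and the share over all probe sets is not given here. The 13 had a median interaction of 0.06 (9 above 0), and 1 was at unadjusted p under 0.05. Iqgap1, a scaffold protein of the cytoskeleton, had 218, 225, 243 and 216 units in KO CCI and 212, 187, 238 and 255 in KO sham medulla, against 160.3, 109, 163 and 105 in control CCI and 77.9, 80.1, 122 and 86.2 in control sham medulla. KO arrays lay above control arrays throughout by this probe set, and the interaction was -0.48 (-0.94 to -0.02), with -0.01 in KO and 0.47 in control mice. The other 4 Iqgap1 probe sets gave -0.09 and -0.28, and -0.32 and -0.43 by dim ones with group means of at most 14.8 units. The midbrain interaction of the named probe set was -0.43.

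The others had intervals that include 0. Axin1, a scaffold of Wnt signalling, had -0.22 (-0.96 to 0.52) and levels of 132 to 406 units on KO against 63.8 to 79.7 on control arrays by its brightest probe set. A second Axin1 probe set was not higher in KO, averaging 66.1 units in KO CCI, 78.4 in KO sham, 80.1 in control CCI and 81.5 in control sham medulla. Its interaction was -0.16. Dctn5, a dynactin subunit, had 0.06 (-0.57 to 0.68), the myosin gene Myo7a 0.11 (-0.48 to 0.69), Hdgfl3 0.03 (-0.44 to 0.49) and Pgap2, which acts in anchor processing, 0.08 (-0.20 to 0.36). Spon1, a secreted guidance protein, had -0.10 (-0.49 to 0.29) and the endocytic receptor gene Lrp2 -0.32 (-1.05 to 0.41). Of the Trim genes, whose near-identical copies the probes may not separate, Trim34a had 0.05 (-0.68 to 0.78), Trim30a 0.19 (-0.34 to 0.71) and Trim12a 0.09 (-0.58 to 0.77). Folh1, a glutamate carboxypeptidase, had 0.21 (-0.53 to 0.95), and -0.02 without KO sham 3.

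Leaving out the arrays that stood apart moved many of these small interactions. Of the 101 named genes, 43 turned sign or moved by over 1.5 times without KO sham 3 or without the 3 arrays. Only 4 of the 43 had an interval excluding 0 over all arrays: Sema6a as given above, Grik1 (0.22 without the 3 arrays), Csrp3 (0.21) and Isl1 (0.38). The sign turned for 10, namely Cckbr, Cck, Gast, Pdyn, Rgs4, Myo7a, Hdgfl3, Spon1, Trim12a and Folh1, all with intervals that include 0.

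Without KO sham 3 the interaction was 0.09 for Xbp1, 0.19 for Rpl37, 0.12 for Rgs5, -0.08 for Col1a2, 0.02 for Trim30a, -0.18 for Scn2a, -0.18 for Per3, 0.23 for Calcb and -0.19 for Lrp2, each closer to 0. Axin1 moved away from 0, to -0.39. Without the 3 arrays it was 0.46 for Cckar, -0.86 for Mnx1 and 0.30 for Arrb2, each farther from 0, and 0.03 for Oprk1, 0.09 for Oprd1, -0.04 for Itgam and 0.34 for Klf2, each closer to 0.

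Probe sets of a gene often differed as well. Of the 54 named genes with another probe set, 27 had at least 1 of opposite sign. Among the list genes they included 0.16 for Lrp2, 0.11 for Per3, -0.05 for Oprl1, -0.35 for Pomc, -0.11 for Rgs4, -0.02 for Fgfr3, 0.03 for Slc1a3, -0.27 for Rgs5, -0.04 for Col1a1, -0.03 for P2rx4 and -0.36 for Trim12a. A dimmer Isl1 probe set gave 0.11.

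The midbrain of the same mice was the closest comparison. Its interaction also gave 0 of 22626 probe sets past the threshold (0%; lowest adjusted p 0.822), with 1241 at unadjusted p under 0.05 (5.48%), against 604 (2.67%) in medulla. The medulla interaction minus the midbrain interaction, fitted over all 32 arrays, gave 0 (0%; lowest adjusted p 0.977, 808 at unadjusted p under 0.05, or 3.57%). No difference between the regions was therefore shown. Across probe sets the 2 interactions correlated at r = 0.019, and at 0.079 among the bright ones, and they come from the same animals. Of the 24 genes of smallest p in medulla, 15 had a midbrain interaction of the same sign (7 of the 12 above 0 and 8 of the 12 below 0). The share of same sign was 49.98% over all probe sets and 50.96% over the bright ones. Of the 24, 0 passed the test of the difference between regions. Cend1 was at 0.48 in medulla and 0.38 in midbrain, Dmp1 at 0.65 and 0.15, Fkbp5 at 0.45 and -0.03, and Prelp at -0.70 and -0.01. Cep95 had opposite signs, -0.69 in medulla and 0.54 in midbrain. The choroid plexus median was -1.34 in medulla and -0.21 in midbrain, where the 14 genes summed to 903 to 6022 units per array.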

How the data were processed

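Per the labels' protocols, RNA came from TRIzol extraction, and 4 ug of it gave biotinylated cRNA for Affymetrix mouse arrays of 22690 probe sets. The authors deposited 1 linear, background-subtracted intensity per probe set and array. The software and scaling are not given in the sources used here. Values under 0 were set to 0, 16 was added, the log2 was taken and all 32 arrays were quantile normalized. A model with a mean for each of 4 groups was fitted to the 16 medulla arrays with limma 3.58.1 in R 4.3.3 (lmFit, eBayes), and the script was tested on simulated data. Moderated p-values are two-sided and were adjusted by Benjamini-Hochberg over 22626 probe sets, with a threshold of 0.05. The 4 arrays per group limit the precision. Lists used the brightest probe set of each of 12393 genes, with no set test. Genes were named by rank of p (12 per direction, highest group mean at least 50), as the member of smallest p per direction in a list, or in full for the CCK, opioid and genotype-linked lists; other names were chosen after their values were seen. The groups, lists and naming rule were chosen with earlier results of these data known. Gene symbols came from the platform annotation: 20380 probe sets carried 1 symbol, 691 several and 1555 none. Alternatives were another scaling, pseudocounts of 1 and 64, a brightness filter, other variance models, a block for array code, for title number or for animal, the choroid plexus and cerebellar levels as covariates, and the omission of each array.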

Additional observations from a re-analysis of the deposited data

Results flagged for a closer look

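Within groups of 4 arrays, 1 array was sometimes far from the other 3, measured as its gap to the nearest array divided by the group's whole range. Of 144 groups examined, 17 exceeded the 95% critical value for 4 arrays, and chance gives about 1 in 20. Among the choroid plexus sums, KO CCI 1 was low (gap ratio 0.897) and control sham 4 was low (0.910). Among the cerebellar sums, KO sham 3 was high (0.842) and control CCI 2 was high (0.964). Control sham 4 was also low in the meningeal and fibroblast sum (0.855), and KO sham 3 high in the astrocyte sum (0.885). Control CCI 3 was low in the oligodendrocyte sum (0.850) and in the Hox sum (0.961), KO sham 4 low in the Hox sum (0.872) and KO CCI 4 low in the microglia sum (0.909).

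Among the named genes, control sham 1 was high for Cend1 (0.988) and Lgals3bp (0.941) and low for Ezr (0.872). Klk1b8 was low on KO sham 3 (0.863) and on control sham 3 (0.922). Hsd3b1 was low on KO sham 2 (0.852), and Eif2ak2 was high on control CCI 4 (0.865). Control sham 1 is the 1 medulla array with an array code of its own. Without any single one of the 16 arrays, Cend1 kept an interaction between 0.39 and 0.55, Lgals3bp between -0.53 and -0.42, Ezr between -0.95 and -0.68, Klk1b8 between 0.57 and 0.83, Hsd3b1 between -1.61 and -1.02 and Eif2ak2 between -0.62 and -0.42.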

How the results depend on the processing

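The count of 0 for the medulla interaction held under all 15 alternatives other than omissions of single arrays, with 263 to 1053 probe sets at unadjusted p under 0.05. Leaving out each array in turn gave 0 to 1 for the interaction and for CCI in KO medulla, and 0 for CCI in control medulla, the midbrain interaction and the difference between regions. The exceptions were dim probe sets: without KO sham 1, Nepro (-0.88, adjusted p 0.0202, above 0 on 3 arrays; 4.48e-04 for CCI in KO), without control CCI 3, Cps1 (1.34, 0.0383, at most 16.6 units), and for CCI in KO without KO sham 2, Sp110 (-1.01, 0.0202). With 1 probe set per gene, chosen after seeing the data, CCI in KO medulla gave 1, Dmp1 (0.70, 0.0419; lowest adjusted p of this comparison over the other settings 0.0595 to 0.997). Fewer tests were adjusted for there. The title number as a replicate block gave 0 for every comparison (672 at unadjusted p under 0.05 for the medulla interaction). Residuals of same-numbered arrays correlated at 0.042 on average, and 7 of 24 pairs exceeded 0.1, so the number was not taken as a pairing. The animal as a random replicate block gave 0 for the difference between regions, with medulla and midbrain arrays matched by adjacent array numbers. For KO sham 3 and 4 the titles match them the other way round, and matching by title, chosen after seeing the data, also gave 0. Which of the matches holds is unknown. Of the 24 genes of smallest p, 23 kept their sign under every alternative, which their selection favours. Eif2ak2 turned to 0.046 within the lower array code (7 arrays, with control sham 2 as the only control sham array), and the cause was not tested. The number of arrays limits all of these.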
